A study of Mus musculus with 4 samples.

Results

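The phagocyte NADPH oxidase is the enzyme with which neutrophils, monocytes and macrophages make superoxide. Its subunit genes were examined in RNA sequencing of liver from male C57BL/6 mice. The set held 5 genes chosen by symbol, Cybb, Cyba, Ncf1, Ncf4 and Rac2, and all 5 were found among the 24346 genes listed in each library. All mice received a NASH diet for 3 weeks, that is, a feed rich in fat, cholesterol and sucrose with bile salt that induces steatohepatitis. The 7KC group (n = 2 libraries) had 7-ketocholesterol, an oxidized derivative of cholesterol, in this feed, and the control group (n = 2) had the feed alone. No group on a normal diet entered the comparison, so the values below describe the addition of 7KC to a liver that was already on a steatohepatitic diet.

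The enzyme is built from a membrane pair and a cytosolic complex. Cybb encodes gp91phox (NOX2), the catalytic subunit that passes electrons from NADPH to oxygen, and Cyba encodes p22phox, its membrane partner. On activation, cytosolic subunits, p47phox (Ncf1) and p40phox (Ncf4) among them, move to the membrane together with the small GTPase Rac2. In the liver Cybb, Ncf1, Ncf4 and Rac2 are chiefly known from Kupffer cells and recruited leukocytes. NOX4, a relative that makes hydrogen peroxide without the cytosolic subunits, is known from hepatocytes and stellate cells.

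The 5 genes lie apart in the genome, apart from Ncf4 and Rac2 on the same chromosome. On mm10, Cybb is at chromosome X, 9435252 to 9487771, Cyba at chromosome 8, 122424776 to 122432930, and Ncf1 at chromosome 5, 134220053 to 134229625, all on the minus strand. Ncf4 is at chromosome 15, 78244801 to 78262580, on the plus strand, and Rac2 at chromosome 15, 78559167 to 78572783, on the minus strand. In the GENCODE M21 annotation, which is on this build, no exon of these genes shares bases with an exon of another gene.

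All 5 oxidase genes were higher in both 7KC libraries than in both control libraries, at 2.2 to 2.98 times the control mean. Only Ncf1 passed the test over all genes, and the other 4 had adjusted p-values of 0.0606 to 0.0979. The upstream sequences of Cybb and Ncf1 are shown first, because these are the members with the largest ratio and with the adjusted call, and each window holds a match to a motif searched. They are the 250 bases before the RefSeq start (GRCm38.p6, the build of mm10), chrX:9469325-9469574 for Cybb and chr5:134229626-134229875 for Ncf1, both minus strand. The Cybb window lies within the annotated span of the gene, 9435252 to 9487771, and the Ncf1 window is upstream of the gene. Capitals mark matches to the motifs named in the next paragraph.
Cybb: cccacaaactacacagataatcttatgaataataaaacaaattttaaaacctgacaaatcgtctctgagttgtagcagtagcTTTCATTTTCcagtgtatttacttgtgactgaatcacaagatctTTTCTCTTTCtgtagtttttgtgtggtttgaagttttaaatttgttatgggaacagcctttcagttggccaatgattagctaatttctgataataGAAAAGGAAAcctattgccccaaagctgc
Ncf1: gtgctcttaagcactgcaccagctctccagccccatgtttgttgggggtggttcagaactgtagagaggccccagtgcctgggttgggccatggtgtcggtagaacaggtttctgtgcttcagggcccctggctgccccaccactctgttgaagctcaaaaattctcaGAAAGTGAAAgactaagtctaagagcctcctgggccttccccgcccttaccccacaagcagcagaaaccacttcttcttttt

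Of the 5 members, 3 had a window in the RefSeq table used, and 2 motifs were searched on both strands. They were the core of the interferon response element (GAAA and, after any 2 bases, GAAA again) and the core GAGGAA of the myeloid factor PU.1, and no match to one overlapped a match to the other. The interferon response core matched 3 times for Cybb, with the letters GAAAAGGAAA at positions -29 to -20 from the start and with reverse-strand matches at -124 to -115 and -168 to -159. It matched once for Ncf1, with GAAAGTGAAA at -82 to -73. The Cyba window (chr8:122432941-122433190, minus strand) held no match, and no member window held GAGGAA. Of 32851 windows of the same length, 2.98% held the interferon response core and 23.3% GAGGAA. These matches describe letters and were not measured as binding sites.

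The values are FPKM, the fragments mapped to a gene, per kilobase of its exons and scaled to the mapped fragments of its library. Log2 changes are of FPKM + 0.5, 7KC minus control, with a standard error (SE) and a p-value from limma adjusted over the 12299 genes whose mean reached 0.5 FPKM. With 2 libraries against 2, an exact permutation test of a single gene cannot go below p = 0.333. The p-values set each group difference against a spread between libraries that is estimated in part from all tested genes. The labels do not say whether each library was a separate mouse, so this spread may be in part technical. Depth, estimated from the steps of low values, was about 17100000 mapped reads in control replicate 1 and 13600000 to 13800000 in the other libraries. The correlation of log2 values across genes was 0.980 between the control libraries, 0.983 between the 7KC libraries and 0.958 to 0.979 across groups. Over all tested genes the median of the log2 changes was -0.03.

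The membrane pair had the highest levels of the complex. Cybb was at 22.8 and 16.5 FPKM in control replicates 1 and 2, and at 48.3 and 69.0 FPKM in 7KC replicates 1 and 2. The groups did not overlap, and the 7KC pair was farther apart in FPKM than the control pair. The group means were 19.7 ± 4.47 FPKM (SD, n = 2) and 58.7 ± 14.7 FPKM (SD, n = 2). The ratio of the means was 2.98, the largest of the 5, and the log2 change was 1.55 (SE 0.23, 95% interval 0.96 to 2.14, limma adjusted p 0.0606). Of all tested genes, 0.943% had a larger log2 change than Cybb.

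Cyba was at 67.8 and 40.2 FPKM under control feed and at 122 and 147 FPKM in the 7KC libraries. The groups did not overlap, and here control replicate 1 stood well above control replicate 2. The means were 54.0 ± 19.5 and 134 ± 17.9 FPKM (SD, n = 2 each), a ratio of 2.48. The log2 change was 1.35 (SE 0.27, 95% interval 0.67 to 2.02, limma adjusted p 0.0949). Per length, Cyba was the most abundant of the 5 in every library.

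Among the cytosolic subunits, Ncf1 rose. It encodes p47phox, the organizer that is phosphorylated and then docks on p22phox. It was at 8.50 and 7.36 FPKM under control feed and at 19.9 and 23.4 FPKM in the 7KC libraries. The libraries of each group were close together relative to the gap between the groups. The means were 7.93 ± 0.804 and 21.7 ± 2.53 FPKM (SD, n = 2 each), a ratio of 2.73, and the log2 change was 1.39 (SE 0.14, 95% interval 1.04 to 1.75, limma adjusted p 0.0347). Its log2 change was not the largest of the 5, but its SE was the smallest.

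Ncf4 encodes p40phox, which binds the phosphoinositides of the phagosome membrane. It was at 6.77 and 4.17 FPKM under control feed and at 11.9 and 12.2 FPKM in the 7KC libraries. The 7KC libraries were nearly equal, and most of its spread lay between the control libraries. The ratio of the means, 5.47 ± 1.84 and 12.0 ± 0.186 FPKM (SD, n = 2 each), was 2.2. The log2 change was 1.11 (SE 0.22, 95% interval 0.54 to 1.68, limma adjusted p 0.0979), the smallest of the 5. Ncf4 was also the member with the fewest reads, an estimated 73 in control replicate 2 and 211 in 7KC replicate 2, whose counting error was 11.7% and 6.88% of the value.

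Rac2 is the Rac GTPase of blood cells and completes the active enzyme. It was at 10.2 and 6.39 FPKM under control feed and at 18.6 and 21.6 FPKM in the 7KC libraries. The groups did not overlap, and control replicate 1 was the higher control. The means were 8.28 ± 2.68 and 20.1 ± 2.10 FPKM (SD, n = 2 each), a ratio of 2.43, and the log2 change was 1.26 (SE 0.23, 95% interval 0.68 to 1.84, limma adjusted p 0.0805). Rac1, its relative that all cells express, was at 77.4 and 72.5 FPKM under control feed and 82.4 and 80.4 FPKM in the 7KC libraries. Both 7KC libraries of Rac1 lay above both controls, and its log2 change was 0.12 (95% interval -0.16 to 0.39, limma adjusted p 0.603). Its exons share 2309 bases with those of Daglb on the opposite strand, and the strand setting of the counting is not known here.

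**Figure D1:**
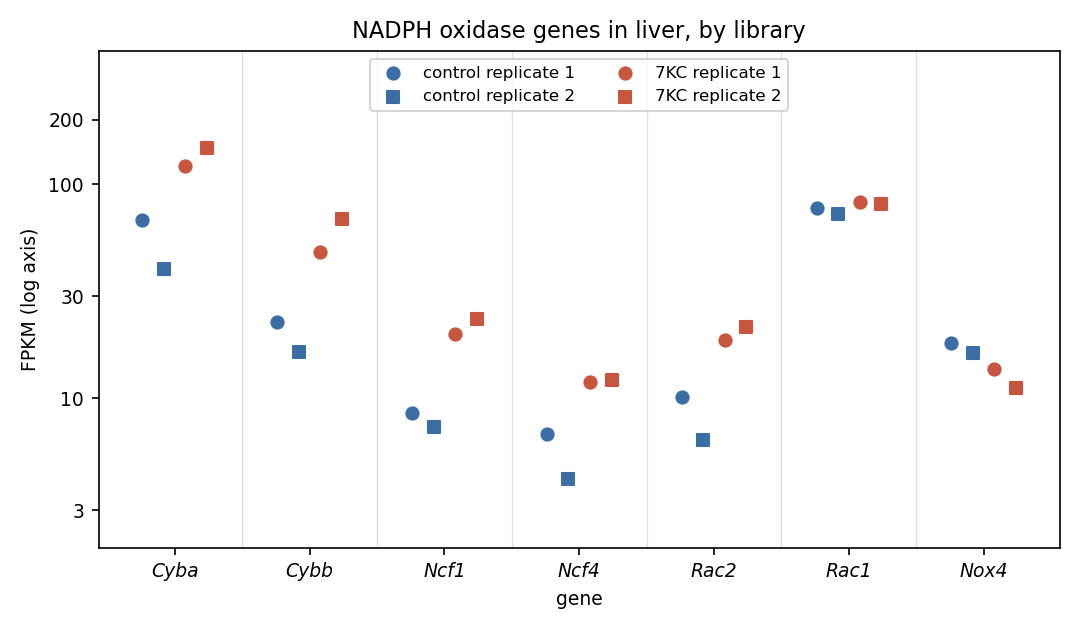
FPKM of the oxidase subunit genes, Rac1 and Nox4 in each of the 4 liver libraries, on a log axis. Blue points are the control group, red points the 7KC group, circles replicate 1 and squares replicate 2. For Cyba, Cybb, Ncf1, Ncf4 and Rac2 both red points lie above both blue points, Rac1 is nearly level between 72.5 and 82.4 FPKM, and for Nox4 both red points lie below both blue points.

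Counted over the set, 1 of 5 members passed as higher at an adjusted p under 0.05, where 0.48% of all tested genes did, and none passed as lower (0.0244% of all genes). All 5 had an unadjusted p under 0.05 with a positive change, against 12.0% of all genes (5.81% for negative changes). All 5 had libraries that did not overlap, with 7KC higher, against 25.1% of all genes (27.4% with 7KC lower). All 5 also combined this with a log2 change of at least 1, against 4.08% of all genes. The members were named with earlier results of these libraries known, so these counts describe them and carry no test. The median log2 change of the 5 was 1.35, and it lay between 1.36 and 1.55 when the libraries were rescaled in 3 other ways. Under each of these scalings all 5 groups of libraries still did not overlap.

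Whether the other 4 passed rested on the libraries and on their scaling. All 5 members passed with limma without control replicate 1, with log2 changes of 1.43 to 1.78. None passed without control replicate 2 (0.79 to 1.32), without 7KC replicate 1 (1.12 to 1.80) or without 7KC replicate 2 (1.09 to 1.29). All 5 passed after rescaling the libraries to an equal summed FPKM, with log2 changes of 1.33 to 1.76, a scaling that moved the median of all tested genes to 0.17. The adjusted p of Ncf1 was 0.174 with the replicate number as a block.

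Within groups the members went the same way. All 5 were higher in control replicate 1 than in control replicate 2, by 1.15 times (Ncf1) to 1.69 times (Cyba). All 5 were also higher in 7KC replicate 2 than in 7KC replicate 1, by 1.02 times (Ncf4) to 1.43 times (Cybb). For Ncf4 this gap, an estimated 205 against 211 reads, lay within the counting error of 6.98% and 6.88%. The summed FPKM of 9 pan-leukocyte markers, genes such as Ptprc (CD45) that most white blood cells express, went the same way, by 1.58 times in the control group and 1.12 times in the 7KC group. That of monocyte and macrophage markers did too, by 1.38 and 1.46 times. Resident Kupffer cell markers did so in the 7KC group (1.49 times) but were nearly level in the control group (0.996 times).

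The ratios between subunits examined here, Cybb to Cyba and Ncf1 to Ncf4, changed less than the levels. Other pairs of members were not examined, so whether their ratios separated the groups is not stated. The FPKM of Cybb was 0.336 and 0.410 times that of Cyba under control feed and 0.397 and 0.470 times in the 7KC libraries, so the groups overlapped. The ratio of Ncf1 to Ncf4 was 1.25 and 1.76 under control feed and 1.67 and 1.93 in the 7KC libraries, again with overlap. The ratio of Rac2 to Rac1, which is not a member, did separate the groups. It was 0.131 and 0.0882 under control feed and 0.226 and 0.269 in the 7KC libraries, a difference of 1.19 on the log2 scale, and Rac1 remained the more abundant transcript in every library.

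The genes with the most similar pattern were found by the root mean square difference of log2 values centred over the 4 libraries, among genes whose mean reached 5 FPKM. The nearest to Cybb were Cd180, a B cell and macrophage surface receptor (difference 0.00959), Itgb2, the beta chain of leukocyte integrins (0.0275), and Csf2rb, a cytokine receptor chain (0.0476). Ncf1 was nearest to Lcp2, an adaptor of leukocyte signaling (0.0198), followed by Tmem173, the innate sensor STING (0.0497), and the myeloid kinase Fgr (0.0504). Ncf4 was nearest to Tmsb4x (0.0192), Lacc1 (0.0479) and Spi1 (0.0526), and Rac2 to Spi1 (0.0561), Sh3bgrl3 (0.0602) and Sp110 (0.0623). The list for Cyba was Sh3bgrl3 (0.0460), Coro1a (0.0573) and the member Rac2 (0.0625). For the mean of the 5 members, the nearest were H2-Eb1, an MHC class II chain (0.0370), Pik3cd (0.0371) and Arhgdib (0.0425). With 4 libraries this is a description of likeness only.

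Other family genes were examined beside the subunits. Of 12 analysed here, 4 were abundant enough to be tested, and none passed with limma. An unadjusted p under 0.05 was found for 2, both lower (5.81% of all genes). Without overlap, 2 were higher (Rac1 and Cybc1) and 2 lower, where 25.1% and 27.4% of all genes were. The median log2 change of the 4 was -0.17 on the deposited scale and 0.03 with the same sum, so no direction is given for the list. Nox4 was at 18.2 and 16.3 FPKM under control feed and at 13.7 and 11.2 FPKM in the 7KC libraries. Both 7KC libraries lay below both controls, with a log2 change of -0.46 (95% interval -0.82 to -0.10, limma adjusted p 0.201). The ratio of Cybb to Nox4, examined after the values were seen, was 1.26 and 1.02 under control feed and 3.53 and 6.18 in the 7KC libraries. Rac3, a scarce Rac gene, was at 1.14 and 0.915 FPKM against 0.419 and 0.333 FPKM, a log2 change of -0.80 (limma adjusted p 0.143). The chaperone of the membrane pair, Cybc1 (listed as BC017643), had a log2 change of 0.41 (limma adjusted p 0.293). The alternative catalytic genes were scarce: Nox1 was at 0.308 to 0.616 FPKM, its organizer Noxo1 at 0.355 to 0.716 FPKM and its activator Noxa1 at 0 to 0.152 FPKM. Nox3, Duox1, Duoxa1 and Duoxa2 were listed at 0 in all 4 libraries, and Duox2 was listed at 0 in 3 and at 0.0166 FPKM in 7KC replicate 2.

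**Figure D2:**
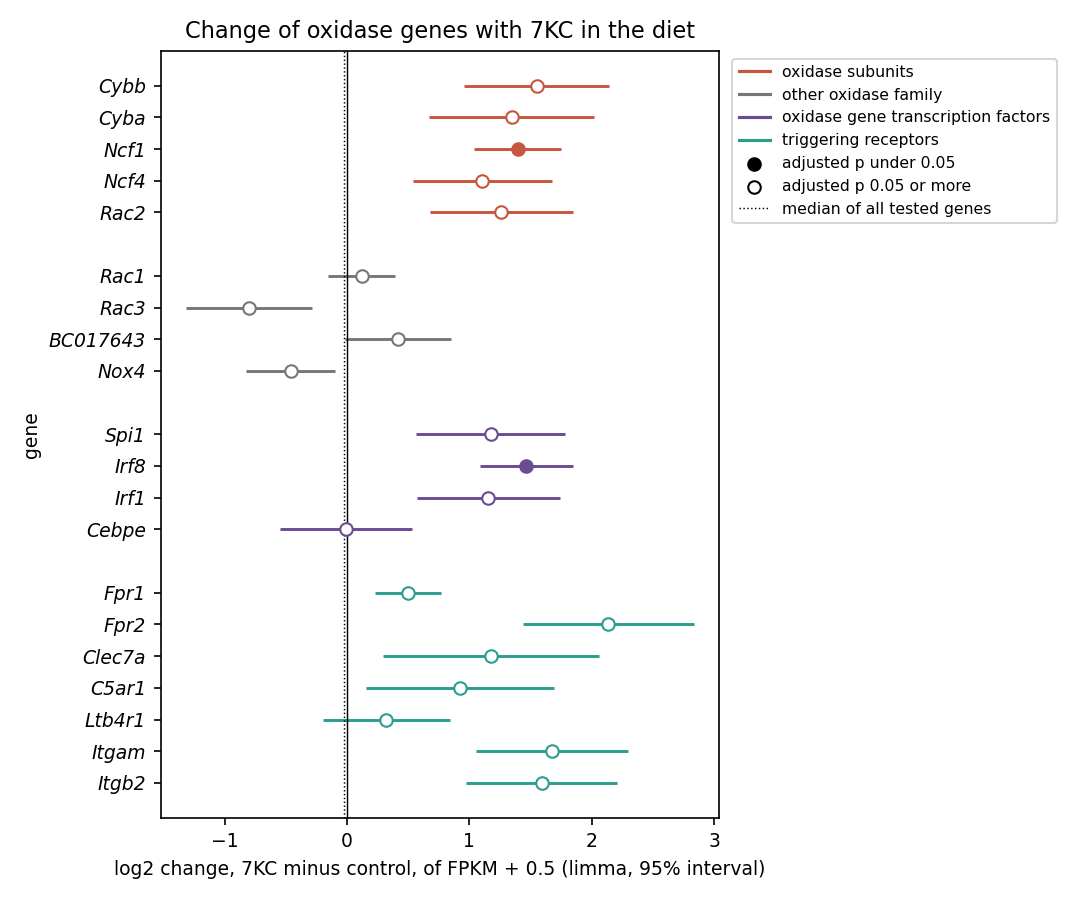
Log2 change of FPKM + 0.5, 7KC minus control, with its 95% interval from limma (n = 2 libraries per group) for the tested oxidase subunit genes and 3 related lists. Filled points passed at an adjusted p under 0.05 over all genes. The 5 subunits lie between 1.11 and 1.55, Rac1 is near 0, and Nox4 and Rac3 lie below 0, at -0.46 and -0.80.

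Genes that act in switching on the enzyme had the same direction. Of 21 such genes, among them kinases, exchange factors and regulators of Rac, 20 had non-overlapping libraries with 7KC higher (25.1% of all genes), and the exception was Rap1a. None passed the adjusted threshold, and the unadjusted p was under 0.05 for 19, where 12.0% of all genes had this with a positive change. Their median log2 change was 1.05. The smallest p-values were for the kinase Fgr, with a log2 change of 1.43 (limma adjusted p 0.0512), the Rac inhibitor Arhgdib with 1.36 (0.0534) and the phospholipase Pla2g4a with 1.33 (0.0549). Pla2g4a was at 1.18 and 1.71 FPKM under control feed and at 4.17 and 4.57 FPKM in the 7KC libraries. Vav1, an exchange factor that loads Rac with GTP, was at 2.97 and 2.50 FPKM against 5.90 and 8.02 FPKM, and the proton channel Hvcn1, which balances the charge moved by the oxidase, at 2.54 and 1.21 against 4.63 and 5.98 FPKM. Both are given as examples of roles in the enzyme and were chosen after their values were seen.

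Receptors known to trigger the oxidase showed the same direction. For all 7 the groups did not overlap, with 7KC higher (25.1% of all genes), and the list's median was 1.18 on the log2 scale, 0.70 without 7KC replicate 2 and 1.69 without 7KC replicate 1. None passed the adjusted threshold, and the unadjusted p was under 0.05 for 6, where 12.0% of all genes had this with a positive change. Fpr2, a formyl peptide receptor, was at 6.80 and 3.65 FPKM under control feed and at 24.8 and 22.6 FPKM in the 7KC libraries, with a log2 change of 2.14 (limma adjusted p 0.0523). Its relative Fpr1 had a log2 change of 0.50 (limma adjusted p 0.108). The integrin chains Itgam and Itgb2, which form complement receptor 3, had log2 changes of 1.67 (limma adjusted p 0.0596) and 1.59 (0.0617).

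Of 4 transcription factors analysed here that are known to control oxidase genes, Irf8 rose with the settings used here. Their median log2 change was 1.16, and 3 had non-overlapping libraries with 7KC higher (25.1% of all genes). Irf8, a myeloid interferon regulatory factor, went from 10.6 and 8.16 FPKM to 26.8 and 26.2 FPKM, a log2 change of 1.46 (limma adjusted p 0.0369). Its adjusted p was 0.12 without a filter, 0.0603 without a variance trend, 0.151 with the replicate block and 0.0676, 0.159 and 0.289 without control replicate 2, 7KC replicate 1 and 7KC replicate 2. Irf1 was at 32.6 and 23.1 against 72.4 and 52.4 FPKM (adjusted p 0.0965 with limma), and Spi1, which encodes PU.1, at 24.1 and 14.7 against 41.2 and 45.1 FPKM (0.0987). Cebpe had a log2 change of -0.01 and overlapping libraries.

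Genes that remove superoxide and peroxide did not share this pattern. With limma none of 14 passed, none had an unadjusted p under 0.05, and the median log2 change was -0.09. Without overlap, 2 were higher and 5 lower, where 25.1% and 27.4% of all genes were, so these counts are near the background. The superoxide dismutase Sod1 was at 1375 and 1420 FPKM under control feed and at 1238 and 1031 FPKM in the 7KC libraries. Catalase (Cat) was at 1011 and 1032 against 885 and 743 FPKM, a log2 change of -0.33 (limma adjusted p 0.355), and the peroxiredoxin Prdx4 had -0.39 (0.318). Thioredoxin (Txn1) had the largest positive log2 change of the list, 0.37 (0.289). On the deposited scale 5 of the 14 had a positive change, and 9 did when the libraries were rescaled to the same sum, so no direction is given for the list.

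Leukocyte markers were higher in the same libraries. In these bulk samples more cells of a type and more RNA per cell cannot be told apart. All 9 pan-leukocyte markers had 7KC libraries above control libraries (25.1% of all genes). Their median log2 change was 1.21, their summed FPKM was 290 and 183 under control feed and 540 and 607 in the 7KC libraries, and none was at 0. By p-value the leading markers were Lcp1 (log2 change 0.80, limma adjusted p 0.0686), Laptm5 (1.21, 0.0704) and Ptprc. Ptprc was at 8.47 and 5.65 against 15.5 and 20.6 FPKM (log2 change 1.31, limma adjusted p 0.0765). Of 12 monocyte and macrophage markers, 10 did not overlap, all with 7KC higher (25.1% of all genes), and the median was 1.22. Their summed FPKM was 1137 and 821 against 2091 and 3060, and none was at 0. The leading 3 were Aif1 (log2 change 1.33, limma adjusted p 0.0512), Ly6c2 and Mpeg1 (1.10, 0.0619). Ly6c2, which marks inflammatory monocytes, was at 11.1 and 5.39 against 44.2 and 42.2 FPKM, a log2 change of 2.40 (limma adjusted p 0.0523). None of these markers passed over all genes. In the same fit 9 of 9 and 10 of 12 had an unadjusted p under 0.05 with a positive change, against 12.0% of all genes.

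Markers of resident Kupffer cells, the macrophages that live in the liver, went both ways. Of 7 genes, 3 were higher and 2 lower without overlap, where 25.1% and 27.4% of all genes were, and none passed. Their median log2 change was 0.02, and it was 0.22 with the same sum and 0.34 over genes of at least 5 FPKM. Clec4f, which defines these cells, was at 52.7 and 62.3 FPKM against 48.1 and 65.1 FPKM, whereas Timd4 was at 7.44 and 7.62 against 13.3 and 16.3 FPKM (log2 change 0.92, limma adjusted p 0.0606). The scavenger receptor Marco had a log2 change of 0.92 (limma adjusted p 0.0966) and Cd5l of 0.65 (0.326). The lower ones were Vsig4 with -0.41 (0.375) and Cd163 with -0.35 (0.360). The summed FPKM of the list was 306 and 308 under control feed and 352 and 525 in the 7KC libraries, and none was at 0.

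Neutrophils carry much oxidase protein, and their markers differed widely in level. Of 12 neutrophil markers listed, 6 were abundant enough to be tested, with a median log2 change of 0.44, and this median went to 0.73 when control replicate 1 was left out and to 0.087 when control replicate 2 was. S100a8, a calprotectin chain that neutrophils hold in the cytosol, was at 16.6 and 6.87 FPKM against 18.8 and 15.8 FPKM, with overlap. The receptor Csf3r, which monocytes express too, had a log2 change of 1.18 (limma adjusted p 0.135), S100a9 of 0.51 (0.257) and Camp of -0.37 (0.380). Of the 6 tested, 2 were higher and 1 lower without overlap, where 25.1% and 27.4% of all genes were. The granule genes Mpo and Elane were at 0.123 to 0.397 and 0.306 to 0.713 FPKM. Among the markers too low to be tested, Elane, Ltf and Ngp were lower in both 7KC libraries, at 0.59, 0.352 and 0.128 times the control mean. Mmp8 was higher in both, at 1.9 times, and Mpo and Cxcr2 overlapped. The mean of each of these was under 0.5 FPKM, so no direction is given for them. The summed FPKM of the list was 37.6 and 21.3 against 42.1 and 45.0, and none was at 0 in any library.

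The 11 tested T and NK cell markers all had 7KC libraries above control libraries (25.1% of all genes), with a median of 1.26. The summed FPKM of the list was 26.5 and 18.2 against 62.6 and 57.2, with none at 0. By p-value Cd3e (log2 change 1.26, limma adjusted p 0.0503), Cd4 (1.42, 0.0512) and Nkg7 (1.32, 0.0523) led this list. B cell markers had a median of 0.49 over 4 genes and dendritic cell markers of 0.38 over 5. Both medians were unstable. Without control replicate 1 they were 0.98 and 0.75, without control replicate 2 they were -0.005 and 0.30, and the dendritic one was 0.16 with quantile normalization and 0.97 over genes of at least 1 FPKM. Log2 changes were 0.86 for Cd79b, 0.58 for Cd22 and 0.39 for Cd79a, and 0.97 for Clec9a, 1.62 for Itgax and 0.38 for Flt3. The B cell sum was 9.01 and 3.26 against 8.69 and 9.50 FPKM, with Pax5 listed at 0 in 1 library, and the dendritic cell sum was 9.08 and 5.88 against 13.7 and 18.1 FPKM. Hepatocyte markers, at a summed 40730 to 75506 FPKM, showed that the tissue was liver. Their median log2 change was -0.51, 6 of 11 were lower without overlap (27.4% of all genes) and none was higher (25.1%). Cps1 had -0.52, Apoa1 -0.68 and Hnf4a -0.25. The hepatocyte median was -0.30 with the same sum and -0.11 with quantile normalization, where 3 markers were positive. The erythroid genes Alas2 and Hba-a1 had log2 changes of -0.49 and -0.20. The part of these shifts in the values of the oxidase genes was not tested, and the ratios given next are descriptions.

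**Figure D3:**
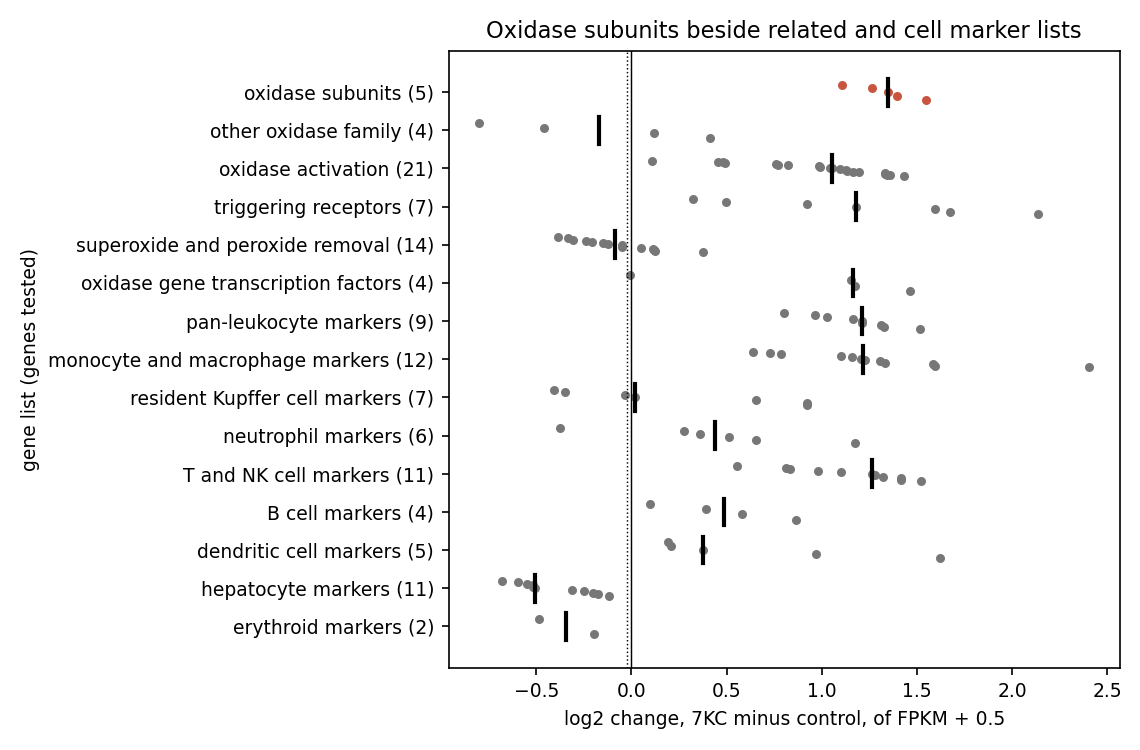
Log2 change of FPKM + 0.5, 7KC minus control, of each tested gene in 15 lists, with the number of genes tested in brackets. Points are genes, thick bars are list medians and the dotted line is the median of all tested genes, -0.03. The median of the 5 subunits, 1.35, lies beside those of the pan-leukocyte (1.21), monocyte and macrophage (1.22) and T and NK cell markers (1.26), and the resident Kupffer cell median is 0.02.

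Set against the summed pan-leukocyte markers of the same library, the oxidase genes differed less between groups than their levels did, and how much depended on 1 marker. Cd52, which had the list's largest log2 change (1.51), made up 43.5% to 58.1% of this sum, so each share is also given without it. Rac2 was at 3.51% and 3.49% of this sum under control feed and at 3.45% and 3.56% in the 7KC libraries. Cyba was at 23.4% and 22.0% against 22.5% and 24.2%, and Ncf1 at 2.93% and 4.02% against 3.68% and 3.87%. Cybb was at 7.88% and 9.01% against 8.93% and 11.4%, so these 4 overlapped between groups. Ncf4 was at 2.34% and 2.28% against 2.20% and 2.01%, lower in both 7KC libraries.

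Without Cd52, a choice made after seeing the data, Cybb was at 16.4% and 15.9% of the sum under control feed and at 21.3% and 23.6% under 7KC, 1.39 times the control mean. Ncf1 was at 6.11% and 7.11% against 8.77% and 8.03%, Cyba at 48.8% and 38.9% against 53.6% and 50.3%, and Rac2 at 7.32% and 6.17% against 8.22% and 7.39%. These 4 were then higher in 7KC without overlap, at 1.16 to 1.39 times the control mean. Ncf4 was at 4.87% and 4.03% against 5.26% and 4.17%, with overlap. Minus the list's median, which weighs each marker equally, the log2 changes were 0.34 for Cybb, 0.18 for Ncf1, 0.13 for Cyba, 0.05 for Rac2 and -0.11 for Ncf4.

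Against the summed monocyte and macrophage markers, a sum to which Lyz2 alone gave 538 and 321 FPKM in the control group and 995 and 1583 FPKM in the 7KC group, Cybb was at 2.01% in both control libraries and at 2.31% and 2.26% in the 7KC libraries. Among the 5 it was the member whose shares did not overlap, at 1.14 times the control mean. The other 4 overlapped, at 0.877 to 1.04 times the control mean. Without Lyz2, Cybb was at 1.28 and Ncf1 at 1.18 times the control mean, both without overlap, and the other 3 overlapped at 0.973 to 1.09 times.

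Against the resident Kupffer cell markers all 5 stood higher in the 7KC group without overlap, at 1.6 to 2.1 times the control mean, and at 1.72 to 2.27 times without Cd5l, its most abundant gene. Cybb was at 7.45% and 5.36% of this sum under control feed and at 13.7% and 13.2% in the 7KC libraries. Against the neutrophil markers all 5 were also higher without overlap, at 1.47 to 1.94 times the control mean, on a denominator of at most 45.0 FPKM. Over the T and NK cell markers the members were at 0.832 to 1.12 times, with Ncf4 lower without overlap and the others overlapping. Over the B cell markers all 5 were higher without overlap, at 1.31 to 1.69 times, on a sum of at most 9.50 FPKM. These ratios are descriptions with no test. They depend on which markers form the denominator and on their most abundant genes.

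**Figure D4:**
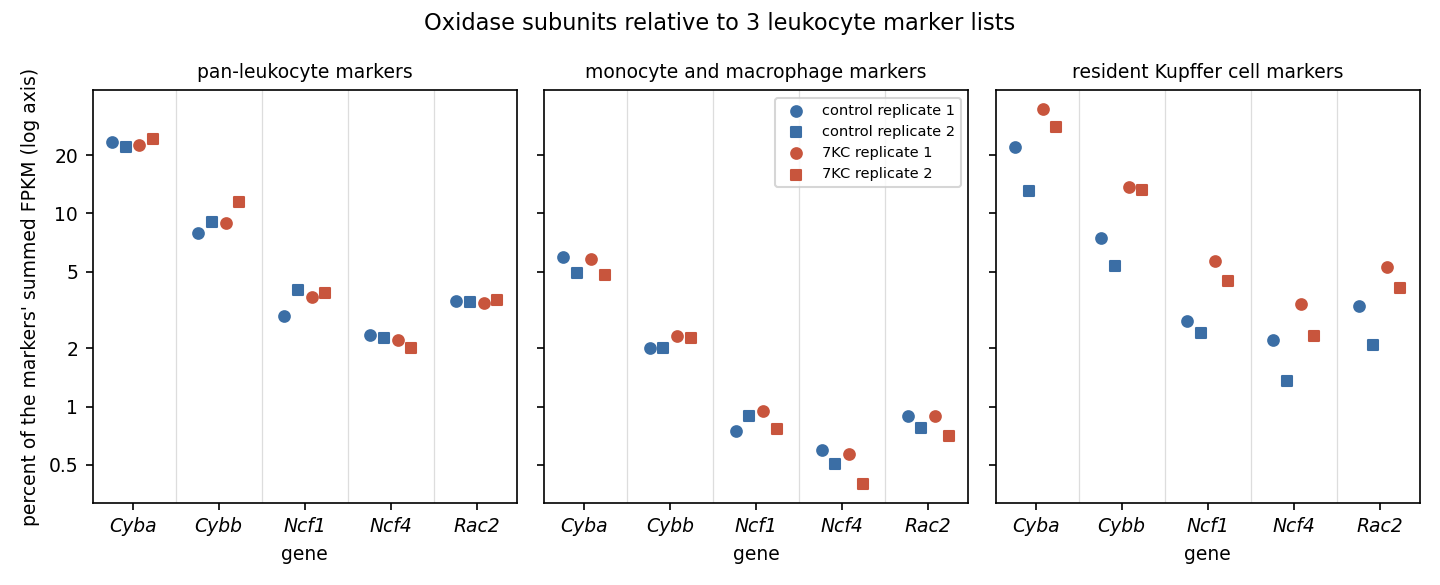
FPKM of each oxidase subunit gene as a percent of the summed FPKM of 3 marker lists in the same library, on a log axis. Blue points are the control group, red points the 7KC group, circles replicate 1 and squares replicate 2. Relative to the whole pan-leukocyte sum 4 of the 5 genes overlap between groups, relative to monocyte and macrophage markers Cybb alone does not, and relative to resident Kupffer cell markers all 5 genes stand higher in both 7KC libraries.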

How the data were processed

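Liver RNA of 4 samples was measured, 2 per group by the sample labels. The authors made stranded messenger RNA libraries and sequenced single-end reads, and deposited FPKM per gene symbol and library, on mm10. The submitters' processing notes list TopHat2 2.1.1, Bowtie2 2.2.8, SAMtools 0.1.18 and Cuffdiff 2.2.1, whereas the study's methods name other versions and Cufflinks. The annotation, the strand setting and the handling of shared reads were not given in the sources used here. FPKM is relative to all mapped reads, so abundant genes move the rest.

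Here log2(FPKM + 0.5) of 12299 genes (mean of at least 0.5 FPKM) was fitted with limma 3.58.1 in R 4.3.3, with group as the only term, a variance trend and Benjamini-Hochberg adjustment (threshold 0.05). Residual degrees of freedom were 2 and prior ones 3.27. The fit was tested on simulated data. Members and lists were chosen with earlier results of these data known. Besides the members, the 3 genes of smallest p per list and the 3 nearest genes by pattern were to be named, and other genes named were chosen after their values were seen. Of 145 list entries, 2 were not matched to a listed symbol. Depth was estimated over genes with 1 GENCODE M21 transcript, where 70.1% to 71.6% of values up to 10 reads lay within 0.1 of a whole read (20% by chance). No 2 libraries were identical. No batch was labelled. Some genes of the complex and its regulators are not reported here. Alternatives changed the pseudocount, filter, variance prior, scaling, block and libraries.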

Additional observations from a re-analysis of the deposited data

How the results depend on the processing

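The direction of all 5 members held under each of 15 alternatives. Calls did not. With limma the report's settings called 59 genes higher and 3 lower. Raising the pseudocount to 1 FPKM called 111 higher, a robust prior 132 and 5, no variance trend 39 and 1, the median ratio 94 higher, the same sum 402 and 7, and no filter 0 and 1 (2634 genes at an unadjusted p under 0.05). Leaving out 1 library gave 2 to 389 higher and 1 to 52 lower.

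Members past the threshold numbered 1 with the settings of the report, 0 without a filter, 0 without a variance trend, 5 with the same sum and 0 to 5 when 1 library was left out. All 5 had an unadjusted p under 0.05 each time. All 5 passed without control replicate 1 and none without any 1 of the other libraries. Ncf1, at 1.39, had an adjusted p of 0.12 without a filter and 0.0603 without a trend. With the same sum Cybb was at 1.76 (0.0343), Cyba at 1.55 (0.0462), Ncf4 at 1.33 (0.0477) and Rac2 at 1.48 (0.042). Leaving out 1 library gave 1.29 to 1.80 for Cybb, 0.97 to 1.72 for Cyba, 1.28 to 1.51 for Ncf1, 0.79 to 1.43 for Ncf4, 0.95 to 1.58 for Rac2, and 0.97 to 1.58 for the median of the 5. Their median minus that of the markers was then 0.018 to 0.25 (pan-leukocyte), -0.085 to 0.25 (monocyte and macrophage) and 0.89 to 1.52 (resident Kupffer). Adjusted p-values over these settings spanned 0.0194 to 0.252 (Ncf1) and 0.0191 to 0.464 (the other members). Why the calls differed between settings was not tested.

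The replicate number as a block gave 0 higher and 0 lower (1851 at an unadjusted p under 0.05), 0 members past the threshold and Ncf1 at 1.39 with an adjusted p of 0.174. Same-numbered libraries deviated in opposite ways (correlation -0.141), and the pairing by number is not given by the labels. The crossed pairing, chosen after seeing the data, gave 551 higher and 37 lower, with 5 members past the threshold. Ncf4 in control replicate 2, at an estimated 73 reads, was the thinnest member value.

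Over the summed markers without the most abundant gene, added after seeing the data, 3 log2 differences changed sign. Ncf4 over pan-leukocyte markers became 0.079, and over monocyte and macrophage markers Cyba became 0.14 and Rac2 0.098.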
